A study of Mus musculus with 4 samples.

Results

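The Ifit genes encode interferon-induced proteins with tetratricopeptide repeats, and 4 of them, Ifit1, Ifit2, Ifit3 and Ifit3b, were followed here in macrophages with and without a catalytic subunit of protein phosphatase 2A. They were found by symbol in the platform's probe annotation. Each had a single feature annotated with its symbol alone. Features annotated with several symbols, 1814 in all, were not assigned to genes. The members were thus 4 of 22180 genes with a feature of exactly 1 symbol and 4 of the 12542 genes tested. All 4 passed the filter on dim genes, a mean over the arrays of at least 3.53 log2 units, which is the median over all deposited features, and all 4 also lay above it in the mean of each genotype.

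RNA came from bone marrow derived macrophages, phagocytes grown from mouse marrow for 6 days in RPMI medium with L-cell supernatant and then given 100 ng/ml lipopolysaccharide (LPS), a cell wall component of Gram-negative bacteria, for 2 hours. The knockout cells were PP2ACαfl/fl;lyM-Cre, in which a myeloid Cre removes exon 1 of both floxed alleles of Ppp2ca, the gene of the alpha catalytic subunit. The control cells were PP2ACαfl/fl, with the same floxed alleles and no Cre. Cre and the loss of Ppp2ca therefore go together on every array, and their effects cannot be told apart. There were 2 arrays of each genotype. The labels call them biological replicates but do not name the mice or cultures. The p-values measure only the spread between these arrays, which may be technical. The test used, limma, pools that spread over genes, and without the pooling 0 genes were called. The labels read here give no strain, age or sex, and no comparison with cells without LPS was made, so the values are levels after LPS and not responses to it.

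Ifit genes are classical targets of type I interferon. Toll-like receptor 4 signals through the adaptor TRIF to the transcription factor IRF3, which drives the interferon beta gene and, with no need for interferon, Ifit genes themselves; secreted interferon beta then acts through its receptor and the factor ISGF3 on the same promoters. The site that IRF3 and ISGF3 bind, the interferon-stimulated response element, holds the letters GAAA repeated with a short spacer. The proteins bind foreign RNA and curb its translation, partly by contact with the initiation factor eIF3.

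The promoters of 3 members are shown because the genes lie in a single cluster and each window holds this element more than once. The windows run from 250 bases before to 50 bases after the start given by RefSeq on GRCm38.p6, are all on the plus strand of chromosome 19, and carry in capitals each match to the letters GAAA, any 2 letters and GAAA again, searched on both strands. They are chr19:34640639-34640938 for Ifit1, chr19:34583279-34583578 for Ifit3 and chr19:34607707-34608006 for Ifit3b.
Ifit1: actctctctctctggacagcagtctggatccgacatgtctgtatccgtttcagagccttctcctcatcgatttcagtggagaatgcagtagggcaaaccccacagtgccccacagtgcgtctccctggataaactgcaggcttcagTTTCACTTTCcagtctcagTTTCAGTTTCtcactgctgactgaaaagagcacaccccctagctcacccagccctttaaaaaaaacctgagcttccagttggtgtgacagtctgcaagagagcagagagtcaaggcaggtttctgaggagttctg
Ifit3: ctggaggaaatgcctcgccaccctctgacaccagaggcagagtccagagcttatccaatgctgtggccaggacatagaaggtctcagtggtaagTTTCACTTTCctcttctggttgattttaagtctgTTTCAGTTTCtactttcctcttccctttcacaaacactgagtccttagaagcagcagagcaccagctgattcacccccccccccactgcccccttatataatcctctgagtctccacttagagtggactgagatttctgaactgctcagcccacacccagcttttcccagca
Ifit3b: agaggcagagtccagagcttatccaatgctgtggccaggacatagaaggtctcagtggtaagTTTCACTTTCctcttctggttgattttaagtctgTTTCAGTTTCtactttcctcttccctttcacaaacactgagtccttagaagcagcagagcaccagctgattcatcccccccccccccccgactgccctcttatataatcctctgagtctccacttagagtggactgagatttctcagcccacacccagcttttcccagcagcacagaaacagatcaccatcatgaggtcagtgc

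Each of these windows held 2 matches, 1 reading GAAAGTGAAA and the other GAAACTGAAA on the minus strand. In the windows as shown, the leftmost letters of the matches lay 104 and 85 bases before the start in Ifit1. They lay 156 and 122 bases before the start in Ifit3 and 188 and 154 bases before it in Ifit3b. The windows of Ifit3 and Ifit3b could be aligned over 274 columns, of which 258, or 94.2%, were identical. Of all 32851 windows of this length, 3.44% held at least 1 match and 0.225% held 2 or more. Among tested genes with a window, 3.78% of all 9847 held a match, and 50 of the 312 that rose did. The 2 windows listed for Ifit2 held none, which says only that these letters are not in those windows. The paralog Ifit1bl2, which lies head to head with Ifit1, shares 245 bases of the Ifit1 window in one of its own and with them both matches.

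Ifit1, Ifit2 and Ifit3b rose in knockout macrophages, each close to 3-fold, and Ifit3 was 1.53-fold higher without passing the test. A gene is said to have risen or fallen where limma's test over all 12542 genes gave a Benjamini-Hochberg adjusted p under 0.05. Of all tested genes, 3.3% rose and 3.49% fell, 6.79% in all. Both knockout arrays lay above both control arrays for all 4 members and for 28.8% of all tested genes. In RNA from a whole culture, more cells that express a gene and more RNA per cell cannot be told apart.

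**Figure D1:**
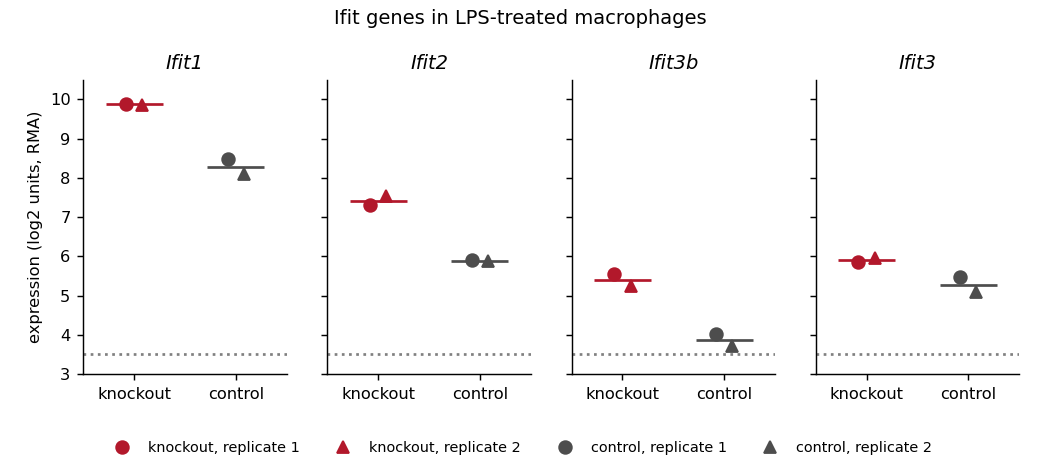
Expression of the 4 Ifit genes (log2 units, vertical axis) on each array, with knockout left of control; circles are replicate 1, triangles replicate 2, lines the group means, and the dotted line the filter level of 3.53. Knockout arrays lie above control arrays in every panel, with the narrowest separation in Ifit3.

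Ifit1 encodes a protein that recognises capped RNA lacking ribose methylation beside the cap. It read 9.88 and 9.86 log2 units on the knockout arrays, against 8.47 and 8.10 on the control arrays. The knockout arrays were 0.03 apart and the control arrays 0.37 apart, and the gap between the groups was 1.38. The means were 9.87 ± 0.02 in knockout and 8.28 ± 0.26 in control macrophages (SD, n = 2 each), and knockout was higher by 1.58 (SE 0.14, 95% interval 1.23 to 1.94, limma adjusted p = 0.0075), a ratio between 2.35 and 3.82 at the ends of the interval.

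Ifit2, which restricts several viruses in mice, read 7.31 and 7.53 log2 units in knockout, against 5.91 and 5.88 in control macrophages. Here the control arrays stood 0.03 apart and the knockout arrays 0.22 apart. The means of 7.42 ± 0.16 in knockout and 5.89 ± 0.02 in control (SD, n = 2 each) differed by 1.53 (SE 0.11, 95% interval 1.26 to 1.79, limma adjusted p = 0.0048), or 2.88-fold. This was the smallest adjusted p of the 4 members.

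Ifit3b, a close copy of Ifit3 in the same cluster, read 5.54 and 5.24 log2 units in knockout and 4.03 and 3.72 in control macrophages. Both groups had a similar spread, 0.30 between the knockout arrays and 0.31 between the control arrays. The means of 5.39 ± 0.21 in knockout and 3.88 ± 0.22 in control (SD, n = 2 each) differed by 1.51 (SE 0.16, 95% interval 1.13 to 1.90, limma adjusted p = 0.010). The control values lie near the filter level, where array values understate differences, so the 2.86-fold is not an exact size.

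Ifit3, whose human counterpart binds and stabilises IFIT1, read 5.85 and 5.95 log2 units in knockout, against 5.48 and 5.09 in control macrophages. The knockout arrays were 0.10 apart, but the control arrays were 0.38 apart, about as far as the 0.37 that parted the lower knockout array from the higher control array. The means of 5.90 ± 0.07 in knockout and 5.29 ± 0.27 in control (SD, n = 2 each) differed by 0.62 (SE 0.15, 95% interval 0.25 to 0.98), with a limma adjusted p of 0.070 and an unadjusted p of 0.0067.

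The difference of Ifit3 was the smallest of the 4. Over the 4 pairings of a knockout with a control array it ranged between 0.37 and 0.86, whereas those pairings gave 1.38 to 1.78 for Ifit1, 1.40 to 1.65 for Ifit2 and 1.21 to 1.82 for Ifit3b, and these ranges do not overlap that of Ifit3. Within arrays, Ifit3 minus Ifit3b was 0.31 and 0.71 in knockout and 1.44 and 1.37 in control, a difference between the genotypes of -0.90 log2 units. An exact permutation test of 2 against 2 arrays (two-sided) gave p = 0.333, the smallest it can give, and the same p held for Ifit3 against Ifit1 and against Ifit2. Among Ifit1, Ifit2 and Ifit3b the differences were at most 0.07 apart, with exact permutation p of 0.667, 1 and 1. With 2 against 2 arrays no pair could pass this test. Its p-values therefore cannot decide whether Ifit3 stands apart from the other members. Because Ifit3 and Ifit3b are near copies, probes of one may read the other's transcript, and the split of signal between them is uncertain.

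The size of these differences was set beside all tested genes. Ranked downward from the highest difference, Ifit1 stood at 25, Ifit2 at 29, Ifit3b at 30 and Ifit3 at 292 of 12542. The median difference over all tested genes was 0.01, and 95% of them lay below 0.44. At 1.5-fold on group means, the cutoff of the series' design text, all 4 members were higher in knockout, against 2.59% of all tested genes.

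**Figure D2:**
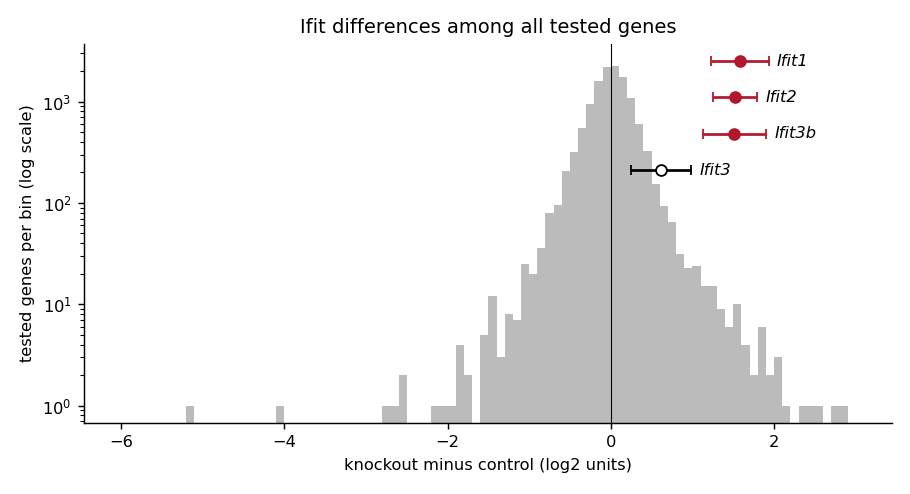
Histogram of the knockout minus control difference (log2 units, horizontal axis) over the 12542 tested genes, with the number of genes per bin on a log axis; points with bars are the 4 members with 95% intervals, at arbitrary height, filled where the test passed and open for Ifit3. Ifit1, Ifit2 and Ifit3b lie between 1.51 and 1.58, in the upper tail.

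The genotype labels were checked on the targeted gene. Ppp2ca read 4.36 and 3.39 log2 units on the knockout arrays and 8.25 and 7.59 on the control arrays. Lyz2, the lysozyme gene that the widely used myeloid Cre line interrupts, read 6.99 and 6.75 in knockout and 12.21 and 11.92 in control. Both genes follow the labels, so loss of Ppp2ca, presence of Cre and lower Lyz2 cannot be told apart as sources of a difference. Where the Ppp2ca probes lie relative to exon 1 was not analysed here. Macrophage markers (7 with a feature of exactly 1 symbol) averaged 10.9 on both knockout arrays and 10.8 and 10.7 on the control arrays. Of these markers the Fc receptor gene Fcgr1 rose by 0.94. Of 27 markers of 5 other cell types, 16 were below the filter. Those of plasmacytoid dendritic cells averaged 4.70 and 4.57 in knockout and 4.55 and 4.44 in control, with Siglech, Ccr9 and Klk1 below the filter. T and NK cell, B cell, neutrophil and fibroblast markers averaged 3.03 to 4.18 in knockout and 3.04 to 4.17 in control. The other 11 were tested, and some of them lay well above the filter. Tcf4, a transcription factor gene on the plasmacytoid dendritic cell list, read 8.83 and 8.76 in knockout and 8.34 and 8.48 in control, a difference of 0.38 that did not pass (limma adjusted p = 0.079). The neutrophil collagenase gene Mmp8 read 8.23 and 8.09 in knockout and 9.06 and 8.93 in control and fell by 0.84. None of the 11 rose. What part the values of Fcgr1, Tcf4 and Mmp8 have in the Ifit values was not tested.

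In the Ifit cluster the members are interleaved with 2 paralogs, in the RefSeq order Ifit2, Ifit3, Ifit1bl1, Ifit3b, Ifit1bl2 and Ifit1. Ifit1bl1 read 4.05 and 3.95 log2 units in knockout and 3.61 and 3.53 in control, a difference of 0.43 (SE 0.09, limma adjusted p = 0.056) that did not pass. Ifit1bl2 read 3.29 and 3.68 in knockout and 2.94 and 3.09 in control, under the filter level in its mean, and was not tested. Both paralogs thus had their knockout arrays above their control arrays, as 28.8% of all tested genes did, at levels close to background.

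The nearest tested genes outside the cluster were Lipa, the lysosomal acid lipase gene, and Pank1, a pantothenate kinase gene. Lipa read 11.77 and 11.87 in knockout and 11.85 and 11.69 in control, a difference of 0.04, and Pank1 read 4.95 and 5.02 in knockout and 5.01 and 4.92 in control, a difference of 0.02. For both genes the groups overlapped. Of the 10 nearest tested genes, 5 on each side, 1 rose and 0 fell, against 3.3% and 3.49% of all tested genes. Counts this small cannot be told apart from those shares. The one that rose was Ch25h, which makes the antiviral oxysterol 25-hydroxycholesterol and is itself induced by interferon, with a difference of 0.63 (SE 0.10, limma adjusted p = 0.030). A list of 12 genes known to lie around the cluster, 9 of them tested, held Ch25h as its 1 riser and had a median of 0.03.

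**Figure D3:**
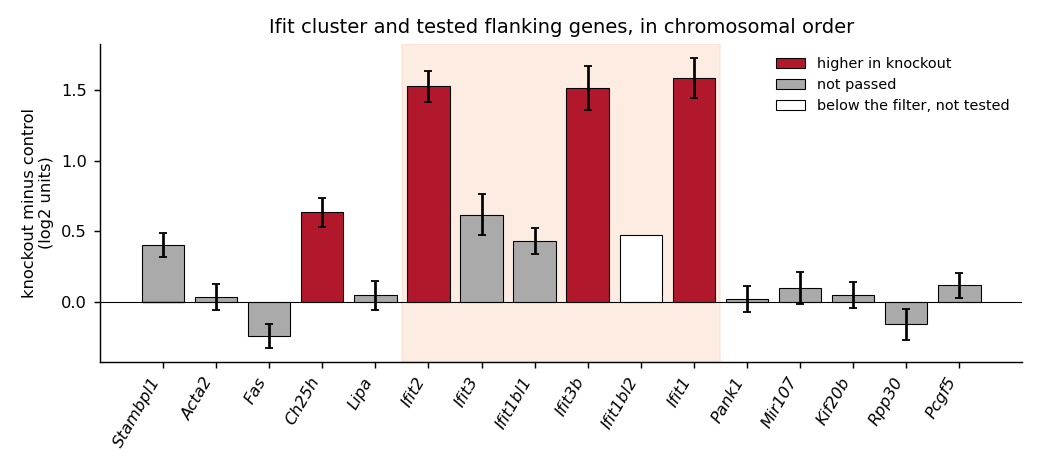
Knockout minus control difference (log2 units, bars, with SE) of the Ifit cluster (shaded) and of the 5 nearest tested genes on each side, in chromosomal order with no scale of distance. Red bars passed the test, grey bars did not, and the open bar was below the filter; outside the cluster the differences lie between -0.24 and 0.63.

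Genes upstream of the Ifit promoters were taken in the order of the pathway. The lists were chosen with earlier results of these data known, and over all tested genes 3.3% rose and 3.49% fell. Along the route between Toll-like receptor 4 and IRF3, 1 of 9 tested genes rose and none fell, with a median difference of 0.22. The riser was Tank, an adaptor of the kinase TBK1, at 0.51 (adjusted p = 0.034). Tlr4, at 0.42 (adjusted p = 0.053), its partner Ly96, at 0.41 (0.090), and Ticam1, the gene of TRIF, at 0.27 (0.16), did not pass.

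Of 4 tested interferon genes and inducing factors, 2 rose. Irf7, which amplifies interferon production, read 10.48 ± 0.10 in knockout and 8.28 ± 0.18 in control macrophages (SD, n = 2 each), and knockout was higher by 2.19 (SE 0.12, limma adjusted p = 0.0029). Ifnb1, the gene of interferon beta, read 8.45 and 8.42 log2 units in knockout and 7.35 and 6.99 in control, a difference of 1.26 (SE 0.14, limma adjusted p = 0.012). Irf1, at -0.39 (adjusted p = 0.057), and Irf8, at 0.15 (0.36), did not pass.

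In the chain between the interferon receptor and ISGF3, 2 of 6 tested genes rose and none fell. These were the ISGF3 subunits Stat2, at 0.86 (SE 0.10, limma adjusted p = 0.015), and Irf9, at 0.51 (SE 0.09, adjusted p = 0.036). The receptor chains Ifnar2, at 0.23, and Ifnar1, at -0.04, and the kinases Jak1, at -0.08, and Tyk2, at 0.01, did not pass.

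Lists of other genes known as targets of IRF3 or interferon were set beside the Ifit genes. These lists were chosen with earlier results of these data known, and whether a shared control underlies the values was not tested. Over all tested genes 3.3% rose. Of 8 tested direct IRF3 targets other than the Ifit genes, 7 rose and none fell, with a median of 1.05 log2 units, led by the antiviral protein gene Oasl1 at 2.82, the chemokine gene Cxcl11 at 2.04, Rsad2, which encodes viperin, at 1.47 and the RNA sensor gene Ifih1 at 1.08. The one not passing was Ccl5. Of 15 antiviral effectors induced by interferon, 13 rose and none fell, with a median of 1.15; Rtp4 at 1.70, Mx2 at 1.65, Oas3 at 1.55 and Rsad2 headed them. The median over the 4 Ifit genes, 1.52, is set beside these medians without a test, and the lists share Rsad2, Isg15 and Isg20.

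Of 6 genes of RNA sensors and adaptors, which detect foreign nucleic acid, 4 rose, namely Dhx58 at 1.21, Ifih1 at 1.08, Ddx58 at 0.83 and the DNA sensor gene Cgas at 0.68. The adaptors Mavs and Sting1 did not pass. Of 6 interferon feedback inhibitors, Usp18, which blocks signalling at the receptor, rose by 1.22 and Socs3 fell by 0.61.

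No tested gene on the cap, eIF3 and other tetratricopeptide repeat lists rose. Ramac, Fam103a1 and Cmtr1 of the cap list and Eif3g and Eif3j2 of the eIF3 list had no feature of exactly 1 symbol. Over all tested genes only 3.3% rose and 3.49% fell, so lists this small would hold few of either. Of 6 cap formation and cap binding genes 0 changed by limma, 2 were lower at an unadjusted p under 0.05, and they had a median of -0.20 with differences between -0.26 and 0.21. Of 12 tested eIF3 subunits none rose, and Eif3b fell by 0.45 (SE 0.08, limma adjusted p = 0.041), with a median of -0.14. Eif3i at -0.44, Eif3l at -0.43 and Eif3k at -0.24 did not pass. At an unadjusted limma p under 0.05 there were 3 eIF3 subunits, none of them higher. Of 21 genes of other families with tetratricopeptide repeats, 0 passed by limma, with 7 at an unadjusted p under 0.05, 3 of them higher, and the median was 0.08. Before adjustment 3099 of all 12542 tested genes had a limma p under 0.05, and no list was tested against that share.

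**Figure D4:**
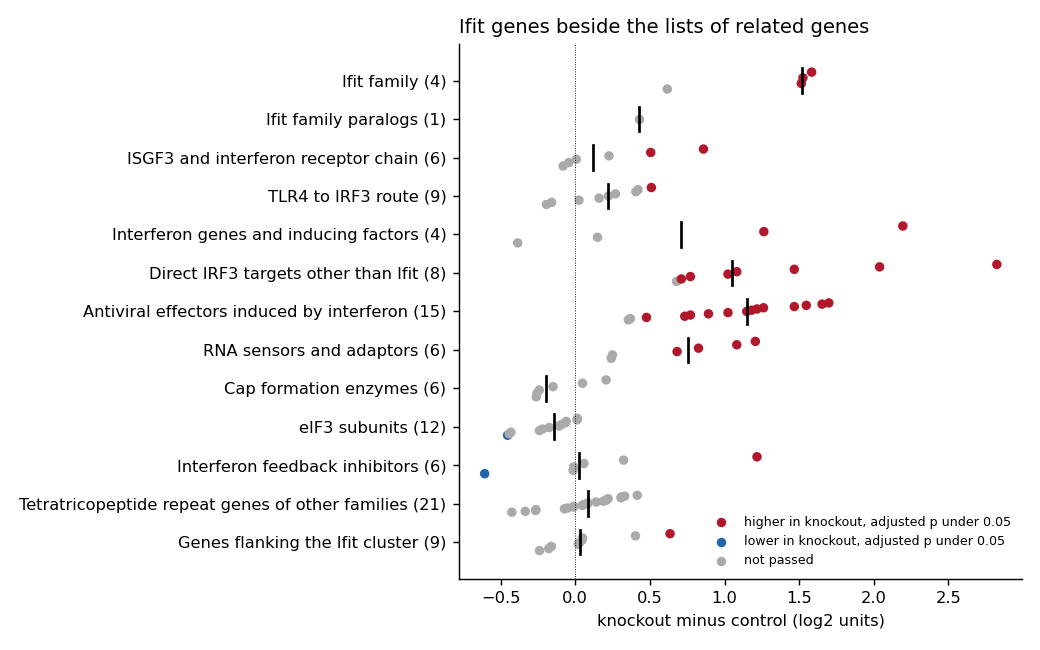
Knockout minus control differences (log2 units, horizontal axis) of the 4 Ifit genes and of the tested genes in 12 lists of related genes, 1 point per gene, with a black bar at each list's median and the number of tested genes in brackets. Red points rose, blue points fell and grey points did not pass; the Ifit genes sit with the interferon-induced lists and to the right of the eIF3 and cap lists.

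The genes with values most like the mean of the Ifit genes were found by centring each gene on its own mean. The root mean square difference over the 4 arrays was then taken from the mean profile of the 4 members. By this measure Ifit3 lay 0.47 to 0.49 log2 units from the other members, which lay 0.11 to 0.21 from one another. The mean profile thus stands between Ifit3 and the rest, and nearness to it is not nearness to each member. The gene nearest the mean profile was Ifnb1, 0.04 log2 units away, against a median of 0.67 over all tested genes. It was followed by Sirpb1a at 0.05, a signal-regulatory protein gene, Siglec1 at 0.05, a sialic acid receptor gene, Oas1b at 0.06 and Oas2 at 0.06, both of the oligoadenylate synthetase family. The control arrays stood in the same order in all of these, with replicate 1 above replicate 2, as they did in each Ifit gene. These genes were chosen on the same values, so this order is no separate finding. In knockout, replicate 1 was above replicate 2 in Ifit1 and Ifit3b and below it in Ifit2 and Ifit3. With 4 arrays in 2 groups this likeness describes the arrays and is no test.

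With an array left out, each member kept a positive difference, and the calls depended on the array. Ifit2 passed in all 4 cases. Ifit1 lost its call without knockout replicate 1, at 1.57 (limma adjusted p = 0.051), and Ifit3b lost it without knockout replicate 1, at 1.36 (adjusted p = 0.057), and without control replicate 2, at 1.36 (adjusted p = 0.054). Ifit3 passed in none of the 4. With all arrays 28 genes were called over the 12 lists, and with 1 left out 7 without knockout replicate 1, 8 without knockout replicate 2, 16 without control replicate 1 and 12 without control replicate 2. The direct IRF3 targets gave 2, 3, 4 and 4 calls in that order, and the antiviral effectors 3, 4, 8 and 6. A group left with 1 array is assumed to vary like the other group.

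**Figure D5:**
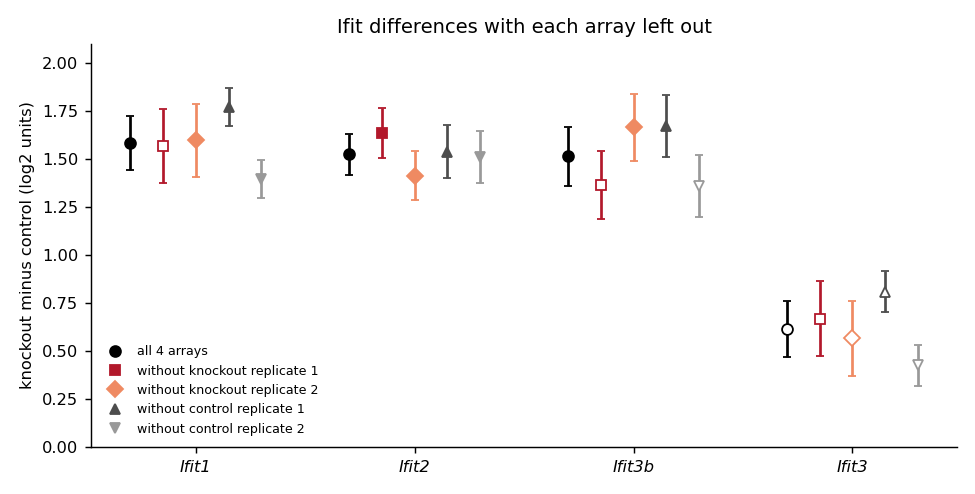
Knockout minus control difference (log2 units, vertical axis, with SE) of each Ifit gene with all 4 arrays and with each array left out; filled symbols passed at an adjusted p under 0.05 and open symbols did not. Ifit2 is filled throughout, and Ifit3 stays between 0.42 and 0.81, below the other members.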

How the data were processed

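The authors deposited log2 values made by robust multi-array averaging, with background adjustment and normalization, per the series' design text; RMA and oligo are named, with no version, per the submitters' processing notes. Biotinylated cDNA came from 400 ng of total RNA, per the labels' protocols. The table held 41345 features on 4 one-colour arrays, normalized to one another, so a change in RNA content per cell would not show. Array medians were 3.50 to 3.57, and arrays correlated across features at 0.986 to 0.990. The number of arrays limits the precision.

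Features with exactly 1 symbol in the platform's annotation (23521) were named, and the one with the highest mean was kept per gene. Genes were tested with limma 3.58.1 in R 4.3.3 (lmFit, eBayes, no block, two-sided, Benjamini-Hochberg). Scripts were tested on simulated data. Promoters came from RefSeq on GRCm38.p6, in which all 4 members matched by symbol, and were aligned with Biopython 1.88. The files name no genome build.

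The members and lists were chosen with earlier results of these data known. The naming rule took the Ifit genes, up to 4 members a list, all members of the receptor chain and the interferon genes, the 5 genes nearest in pattern, Ppp2ca, Lyz2 and the nearest tested gene on each side of the cluster. Genes named beyond it, such as Ccl5, Mavs, Sting1 and the markers below the filter, were chosen after their values were seen. Alternatives covered the filter, normalization, feature choice, block, variance model, weights and each array left out.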

Additional observations from a re-analysis of the deposited data

How the results depend on the processing

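All 4 Ifit differences stayed positive under every alternative that gave a value, between 1.40 and 1.77 for Ifit1, 1.41 and 1.64 for Ifit2, 1.36 and 1.67 for Ifit3b and 0.42 and 0.81 for Ifit3 with each array left out. Ifit3b was below the stricter filter of 5 log2 units. With every feature as a unit the differences were the same but the calls were lost, at 1.58 for Ifit1 (limma adjusted p = 0.073), 1.53 for Ifit2 (0.062) and 1.51 for Ifit3b (0.085), and likewise with no pooling of variance, at adjusted p = 0.20, 0.16 and 0.22. Ifit3, at 0.62, passed with the stricter filter (adjusted p = 0.032) and with an intensity trend in the prior variance (0.038).

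Called genes numbered 852 over all tested genes. They were 333 with no filter, 1475 with the stricter filter, 1584 with the intensity trend, 15 with every feature as a unit (3641 at an unadjusted p under 0.05), 0 with no pooling of variance (2295 at an unadjusted p under 0.05 by the ordinary linear model) and 96 to 174 with each array left out. Over the 12 lists 28 genes were called, and 1 with every feature as a unit, 0 with no pooling and 7 to 16 with each array left out. Median centring gave 375 higher and 576 lower calls, against 414 and 438. The labels do not say whether arrays with the same replicate number were paired. Deviations of same-numbered arrays correlated at -0.04 over tested genes, which cannot exclude a pairing that affects a small set of genes. With the replicate block 312 genes were called, 18 over the lists, and Ifit1, Ifit2 and Ifit3b still passed (adjusted p = 0.022, 0.020 and 0.019). With the last letter of the motif dropped, it was present in the windows of the same number of members, 3. The cause of these changes was not tested.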
